A study of Mus musculus with 6 samples.

Results

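The genes described here build and regulate the non-muscle actin cytoskeleton, together with the intermediate filament gene Vim. They were 10 of the 47729 mouse genes in the count tables: Actb, Actg1, Tmsb4x, Tmsb10, Pfn1, Cfl1, Myl6, Myh9, Tpm4 and Vim. They were listed by name for their function, with no threshold on a measured value, although the list was drawn up with earlier results of these data known. Each was found by its Ensembl identifier, and all 10 had reads in every library.

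Their reads came from bulk RNA-seq of cells enriched for endothelial cells (ECs) with beads against CD144, the VE-cadherin protein of EC junctions, out of ischemic mouse muscle. Per the study's methods the mice ate a high-fat, high-sucrose (HFHS) diet, and per the labels all had hind limb ischemia (HLI) surgery on day 0. The labels place intramuscular adenovirus on days 1 and 4 (the methods put the second dose later) and collection of the muscle after 1 week. There were 3 groups of 2 libraries. WT + GFP were wild-type mice that received an adenovirus encoding green fluorescent protein (Ad-GFP). KO + GFP were Leene-knockout mice given Ad-GFP, and KO + LEENE were such knockouts given a vector for human LEENE (Ad-LEENE). Leene is the mouse counterpart of the human long noncoding RNA LEENE, and the KO line was made with CRISPR by deleting the matching region in C57BL/6J mice. Diet, surgery and adenovirus were thus shared by all groups, so no group was free of ischemia or of virus. The labels give neither age nor sex. Per the methods the study used both sexes. Neither the deletion nor the injected vector is described as restricted to ECs. The sources used here do not say whether the 2 libraries of a group came from different mice, and per the file headers they share 1 facility sample number, so the number and the group cannot be told apart.

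Actin exists as single subunits and as filaments, and cells move, divide and hold their shape by shifting subunits between these states. Thymosins hold subunits in reserve, profilin feeds them to growing filament ends, and cofilin cuts old filaments. Tropomyosin coats filaments, and non-muscle myosin II pulls on them. Vimentin forms a separate network of intermediate filaments that is typical of endothelial and mesenchymal cells. In ECs this machinery carries migration, sprouting and the tightness of cell junctions.

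Libraries held 1770992 to 5602603 reads assigned to genes, and the KO + LEENE libraries were the shallowest. Libraries of a group lay close together, with a biological coefficient of variation of 7.77% over all genes, whereas the groups lay far apart. P values therefore measure the spread between these libraries, which may be technical. Changes are log2 fold changes from edgeR's quasi-likelihood test on TMM-scaled reads, and a gene is called higher or lower where the Benjamini-Hochberg adjusted P over the 8903 genes tested was under 0.05. Scaling mattered for direction: with library size only in place of TMM, the median change of all genes on the log2 scale moved from -0.09 to -0.57 for KO + GFP against WT + GFP. It moved from -0.011 to 1.07 for KO + LEENE against KO + GFP, and from -0.11 to 0.50 for KO + LEENE against WT + GFP. The members' own log2 fold changes shifted with library size only by -0.49 to -0.48, 1.14 to 1.15 and 0.65 to 0.67 in these 3 comparisons. Members whose direction turned with it are named below. Reads of the Leene locus, human LEENE and GFP were not analysed here, so the genotype labels were not checked against them. The sources used here do not say whether cells were pooled or whether the groups were prepared together, so a difference in preparation cannot be told apart from genotype and vector in any comparison between groups.

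**Figure D1:**
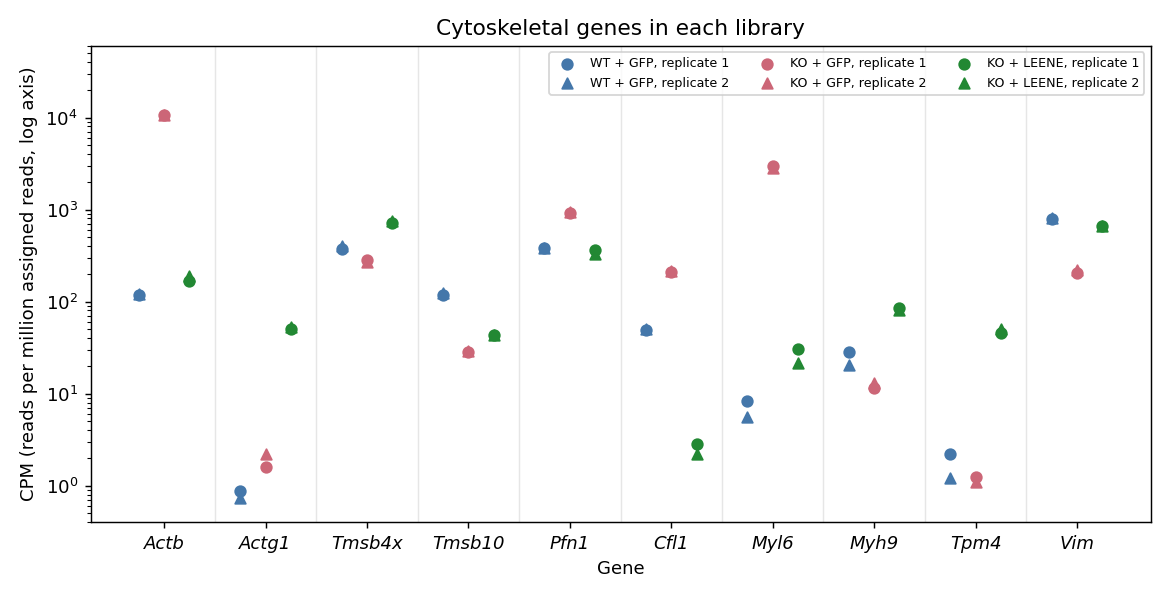
Level of each of the 10 genes in each of the 6 libraries, as reads scaled to a common library total (CPM) on a log axis; circles are replicate 1 and triangles replicate 2, colored by group. Actb and Myl6 in KO + GFP stand far above their level in the other groups, with Actb at 10530 and 10562 CPM, while Actg1 and Tpm4 are highest in KO + LEENE.

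The 10 genes together took a far larger share of the reads in KO + GFP than in the other groups. Their summed share was 0.189% ± 0.00398 (SD, n = 2) of assigned reads in the WT + GFP libraries, 1.51% ± 0.00195 in those of KO + GFP, and 0.217% ± 0.000506 in those of KO + LEENE. The libraries of a group differed by far less than the groups did. Actb and Myl6 made up most of the KO + GFP share. Actb alone took 69.6% and 69.9% of the reads of the 10 genes in the KO + GFP libraries, against 6.35% and 6.36% for WT + GFP and 7.75% and 8.74% for KO + LEENE. Vim held 42.2% and 42.4% of those reads in WT + GFP. These are shares of reads, with no correction for the length of a gene. Mitochondrially encoded genes took 50.1% and 50.9% of all reads in the WT + GFP libraries, 34.2% and 34.3% in those of KO + GFP, and 33.7% and 33.6% in those of KO + LEENE. Out of the reads of the other genes, the 10 genes took 0.382%, 2.30% and 0.328%, so WT + GFP then lay above KO + LEENE. With 2 libraries against 2, an exact permutation test of such a share cannot give a P value under 0.333, and none was run.

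**Figure D2:**
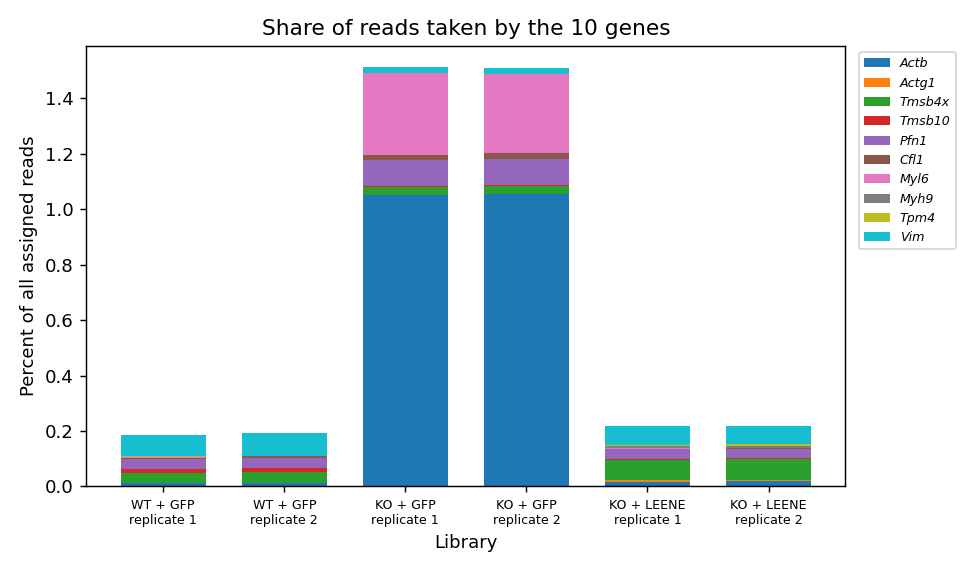
Share of all assigned reads taken by the 10 genes in each library, as stacked bars starting at 0, with 1 color per gene. Both KO + GFP bars reach 1.51%, mostly Actb and Myl6, while the other 4 bars lie between 0.187% and 0.218%.

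In KO + GFP against WT + GFP, which asks what differs with loss of Leene, 5 of the 10 genes rose and 3 fell. Over all genes tested, 70.1% were called, 34.3% higher and 35.8% lower, so the members' 8 calls lay near the background. The risers were Actb, Actg1, Pfn1, Cfl1 and Myl6, and the genes that fell were Tmsb10, Myh9 and Vim. Tmsb4x and Tpm4 were not called. With library size only, 4 were higher and 4 lower, since Actg1 lost its call and Tmsb4x was called lower. A fitted change of at least 4-fold was seen for 3 members, Actb, Cfl1 and Myl6, where 51.7% of all genes passed that size. The CPM of the 2 groups did not overlap for 9 members, Tpm4 being the exception, as for 84.3% of all genes. The members' median log2 fold change was 0.82, with -0.09 over all genes tested. The members' median size of change, regardless of direction, was 1.61 on the log2 scale in this comparison, with 2.09 over all genes. It was 3.10 in KO + LEENE against KO + GFP, with 2.18 over all genes, and 1.16 in KO + LEENE against WT + GFP, with 2.12.

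In KO + LEENE against KO + GFP, which asks what differs when human LEENE is supplied to the KO, all 10 genes were called, 5 higher and 5 lower. The background was 67.8%, with 32.8% higher and 35.0% lower, so that 51.6% of called genes were lower by TMM, but 32.9% with library size only. Actb, Tmsb10, Pfn1, Cfl1 and Myl6 fell, and Actg1, Tmsb4x, Myh9, Tpm4 and Vim rose. Actg1 and Tpm4 passed the filter on low counts through KO + LEENE alone, so the filter favored their calls as higher. With library size only, 6 were higher and 4 lower, since Tmsb10 changed direction. A change of at least 4-fold was fitted for 6 members, against 52.5% of all genes. The CPM of the 2 groups lay apart, with no overlap, for all 10, as for 85.2% of all genes. The median log2 fold change was -0.16 over the members and -0.011 over all genes.

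In KO + LEENE against WT + GFP, which asks how far the supplied KO still differed from WT, 5 members were higher and 4 lower. The background was 70.7%, with 33.9% higher and 36.9% lower, and 52.1% of called genes were lower by TMM, but 40.1% with library size only. Actg1, Tmsb4x, Myl6, Myh9 and Tpm4 were higher, and Tmsb10, Pfn1, Cfl1 and Vim were lower. Here too the filter favored the calls of Actg1 and Tpm4, which passed it through KO + LEENE alone. Actb was not called. With library size only, 6 were higher and 3 lower. A change of at least 4-fold was fitted for 4 members, Actg1, Tmsb10, Cfl1 and Tpm4, against 52.1% of all genes, and the CPM lay apart, with no overlap, for all 10, against 84.1% of all genes. The median log2 fold change was 0.083 over the members and -0.11 over all genes. The 3 comparisons share libraries with each other, so they are given side by side and not as independent results.

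**Figure D3:**
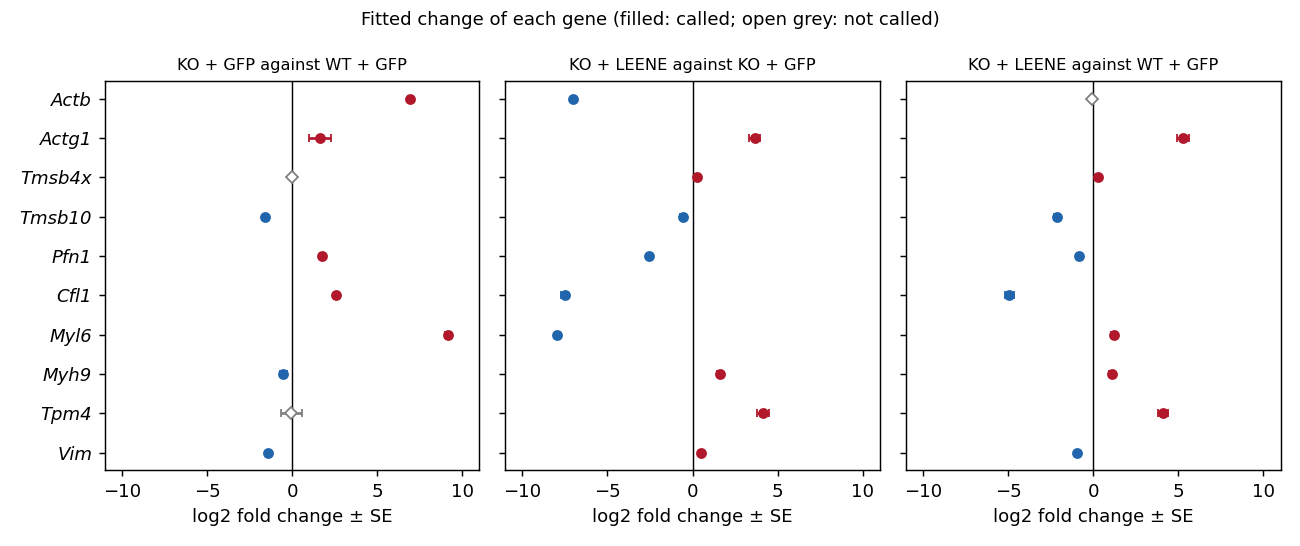
Fitted log2 fold change of each gene in the 3 comparisons, with bars of 1 SE (smaller than the point for most genes); filled red and blue points were called higher and lower, and open grey diamonds were not called. Actb and Myl6 lie far right in KO + GFP against WT + GFP, at 6.93 and 9.16, and far left in KO + LEENE against KO + GFP, at -7.02 and -7.94.

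Actb and Actg1 encode the β- and γ-actins of non-muscle cells, proteins that are nearly identical and that cells usually make together. Actb (chromosome 5, 142903115 to 142906754, GRCm38, minus strand) had 537 and 504 reads in the WT + GFP libraries, 58995 and 38293 in those of KO + GFP, and 298 and 341 in those of KO + LEENE. The KO + GFP libraries stood far above the other 4, with no overlap. Ranked by reads, with no correction for length, Actb was 14th and 15th of all genes in these libraries and lay between rank 604 and rank 669 in the others. From WT + GFP to KO + GFP it rose by 6.93 ± 0.12 (SE) on the log2 scale, or 122-fold, and its adjusted P was too small for the software to tell from 0. It fell by 7.02 ± 0.12 on the log2 scale in KO + LEENE against KO + GFP. Against WT + GFP the KO + LEENE libraries differed by -0.09 ± 0.10 (95% interval -0.29 to 0.11, adjusted P = 0.423). This last value depended on scaling, since library size only gave a log2 fold change of 0.58 and a call (adjusted P = 1.66e-14). It also changed sign, to 0.044, without KO + LEENE replicate 1. Over all alternatives its adjusted P ranged from 1.66e-14 to 0.800.

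Actg1 (chromosome 11, 120345690 to 120348542, minus strand) had 4 and 3 reads in the WT + GFP libraries, 9 and 8 in those of KO + GFP, and 90 and 94 in those of KO + LEENE. Only the KO + LEENE libraries held more than a few reads, and they lay above the other 4 although they were the shallowest. The gene passed the filter on low counts through KO + LEENE alone. It rose by 3.63 ± 0.30 on the log2 scale in KO + LEENE against KO + GFP (12.4-fold, adjusted P = 3.12e-31) and by 5.27 ± 0.35 against WT + GFP (38.6-fold, adjusted P = 9.57e-47). The rise in KO + GFP against WT + GFP rested on few reads. The ratio of the groups' summed reads over their TMM-scaled library sizes was 3.20, with a 95% counting interval of 1.26 to 9.13, and the fitted log2 fold change was 1.64 ± 0.65 (adjusted P = 0.0182). That call was lost with library size only (adjusted P = 0.107), with no filter beyond 1 read (0.0809), and without WT + GFP replicate 1 (0.0530), WT + GFP replicate 2 (0.0807) or KO + GFP replicate 2 (0.0738). Over the alternatives its adjusted P ran from 0.0133 to 0.107.

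The ratio of the reads counted at the cytoplasmic actin genes therefore differed in every group. There were 134 and 168 Actb reads per Actg1 read in the WT + GFP libraries, 6555 and 4787 in those of KO + GFP, and 3.31 and 3.63 in those of KO + LEENE. This ratio is taken within a library and does not depend on scaling between libraries. The means were 151 ± 23.9 (SD, n = 2), 5671 ± 1250 and 3.47 ± 0.224, and the groups did not overlap. The ratio rests on 3 to 9 Actg1 reads per library in WT + GFP and KO + GFP. It also depends on processed copies of Actg1, described below, which are up to 99.6% identical to it. Only uniquely aligned reads were counted, so reads that fit Actg1 and a copy equally well are missing. Adding the copies does not recover them, and how far Actg1 was undercounted was not tested. With their reads added to each gene, an alternative chosen after the data were seen, the means were 80.4 ± 5.27, 3848 ± 518 and 1.73 ± 0.0654, and the order of the groups was the same.

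The thymosins bind actin subunits and keep them out of filaments. Tmsb4x (chromosome X, 167207093 to 167209315, minus strand) encodes thymosin β4, the main such protein of many cells. It had 1693 and 1655 reads in the WT + GFP libraries, 1599 and 988 in those of KO + GFP, and 1271 and 1346 in those of KO + LEENE. Its level varied least of the 10 genes, with a highest group mean 1.19 times the lowest on the TMM scale. KO + GFP differed from WT + GFP by 0.010 ± 0.10 on the log2 scale (95% interval -0.19 to 0.21, adjusted P = 0.943), and the TMM-scaled values of these groups overlapped. The sign of this small difference was negative with library size only, which gave -0.47 and a call (adjusted P = 6.39e-09). Over the alternatives the adjusted P ran from 6.39e-09 to 0.956. KO + LEENE was higher than KO + GFP by 0.25 ± 0.10 (adjusted P = 0.0222) and higher than WT + GFP by 0.26 ± 0.10 (adjusted P = 0.0155). The call against KO + GFP was lost without KO + GFP replicate 2 or KO + LEENE replicate 2, and that against WT + GFP without WT + GFP replicate 1 or KO + LEENE replicate 2. With library size only these differences were larger, at 1.40 and 0.92.

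Tmsb10 (chromosome 6, 72957347 to 72958748, minus strand) encodes the related thymosin β10. It had 533 and 510 reads in the WT + GFP libraries, 159 and 105 in those of KO + GFP, and 76 and 78 in those of KO + LEENE. WT + GFP held the highest level and KO + LEENE the lowest on the TMM scale. It fell by 1.59 ± 0.11 on the log2 scale from WT + GFP to KO + GFP (adjusted P = 2.61e-41). It was also lower in KO + LEENE than in WT + GFP, by 4.42-fold (adjusted P = 8.62e-58). Between KO + LEENE and KO + GFP the direction followed the scaling. TMM gave -0.56 ± 0.16 (adjusted P = 0.000959) and library size only gave 0.59 (adjusted P = 0.000312), and over all alternatives the adjusted P ran from 8.41e-06 to 0.0237. The ratio of Tmsb4x to Tmsb10 reads, which scaling does not touch, was 3.21 ± 0.0486 (SD, n = 2) in the WT + GFP libraries, 9.73 ± 0.458 in those of KO + GFP, and 17.0 ± 0.377 in those of KO + LEENE.

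Pfn1 (chromosome 11, 70651850 to 70654644, minus strand) encodes profilin 1, which loads actin subunits onto growing ends. Reads were 1725 and 1574 in the WT + GFP libraries, 5136 and 3418 in those of KO + GFP, and 641 and 588 in those of KO + LEENE. In CPM the KO + GFP libraries were the highest, at 917 and 943 CPM, and the other groups lay between 328 and 381 CPM. Pfn1 rose by 1.77 ± 0.11 in KO + GFP against WT + GFP (3.40-fold, adjusted P = 2.66e-54). It was 5.96-fold lower in KO + LEENE than in KO + GFP (log2 fold change -2.58 ± 0.11, adjusted P = 2.67e-98). Against WT + GFP, KO + LEENE was lower by TMM at -0.81 ± 0.11 (adjusted P = 1.43e-12). Library size only gave -0.14 and no call (adjusted P = 0.114), the highest of the alternatives, which ranged from 7.30e-27.

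Cfl1 (chromosome 19, 5490485 to 5494029, plus strand) encodes cofilin 1, which severs filaments and frees subunits. Reads were 220 and 209 in the WT + GFP libraries, 1187 and 781 in those of KO + GFP, and 5 and 4 in those of KO + LEENE. The 3 groups did not overlap, and KO + LEENE was close to the floor of 3 reads per library taken as the smallest level a library can show. Cfl1 rose by 2.59 ± 0.09 in KO + GFP against WT + GFP (6.02-fold, adjusted P = 2.12e-148). It was 183-fold lower in KO + LEENE than in KO + GFP (log2 fold change -7.52 ± 0.19, adjusted P = 5.38e-251) and 30.5-fold lower than in WT + GFP (-4.93 ± 0.27, adjusted P = 2.12e-67). Actb and Cfl1 thus both peaked in KO + GFP, but in KO + LEENE Cfl1 lay far under its WT + GFP level, whereas Actb on the TMM scale overlapped its own.

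Non-muscle myosin II pulls on actin filaments. Myl6 (chromosome 10, 128490860 to 128493875, minus strand) encodes its essential light chain. It had 38 and 23 reads in the WT + GFP libraries, 16524 and 10333 in those of KO + GFP, and 54 and 39 in those of KO + LEENE. It stood far above the other libraries in KO + GFP, where it ranked 45th and 47th of all genes by reads, again with no correction for length. The log2 fold change of 9.16 ± 0.16 in KO + GFP against WT + GFP, or 573-fold, was the largest of the 10 genes in any of the 3 comparisons for reads counted at the gene itself, but not once reads of its processed copies were added (77.3-fold, under the 122-fold of Actb). Myl6 was 246-fold lower in KO + LEENE than in KO + GFP (log2 fold change -7.94 ± 0.15). Both adjusted P values were too small for the software to tell from 0. KO + LEENE exceeded WT + GFP by 1.22 ± 0.19 (adjusted P = 4.01e-07), and this direction turned when reads of processed copies of the gene were added, as described below.

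Myh9 (chromosome 15, 77760587 to 77842175, minus strand) encodes the heavy chain of non-muscle myosin IIA, the partner of the Myl6 light chain. Reads were 127 and 85 in the WT + GFP libraries, 65 and 47 in those of KO + GFP, and 149 and 145 in those of KO + LEENE. KO + GFP, the highest group for Myl6, was the lowest for Myh9, and KO + LEENE was highest in CPM. The groups did not overlap. Myh9 was 3.05-fold above KO + GFP in KO + LEENE (log2 fold change 1.61 ± 0.18, adjusted P = 9.17e-19) and 2.12-fold higher than in WT + GFP (1.09 ± 0.15, adjusted P = 7.93e-12). In KO + GFP against WT + GFP it was lower, at -0.52 ± 0.19 (adjusted P = 0.0104). DESeq2 did not call that difference (adjusted P = 0.0654), nor did the fits without WT + GFP replicate 1 (0.256) or KO + GFP replicate 1 (0.109), and over the alternatives the adjusted P ran from 1.38e-07 to 0.256.

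Tpm4 (chromosome 8, 72134975 to 72153142, plus strand) encodes a tropomyosin of non-muscle filaments. Reads were 10 and 5 in the WT + GFP libraries, 7 and 4 in those of KO + GFP, and 80 and 90 in those of KO + LEENE. The KO + LEENE libraries lay far above the other 4, whose CPM overlapped between groups, and the gene passed the filter on low counts through KO + LEENE alone. It was 17.6-fold above KO + GFP in KO + LEENE (log2 fold change 4.14 ± 0.34, adjusted P = 2.51e-32) and 17.0-fold higher than in WT + GFP (4.09 ± 0.31, adjusted P = 2.65e-37). KO + GFP differed from WT + GFP by -0.048 ± 0.61 (95% interval -1.25 to 1.15, adjusted P = 0.957). At 4 to 10 reads per library a difference of that size was not detectable. These values are for reads counted at the gene itself. With reads of its processed copies added, as described below, KO + GFP was called 12.9-fold lower than WT + GFP, and KO + LEENE was 61.7-fold above KO + GFP and 4.79-fold above WT + GFP. For reads at the gene itself, the sign of the difference between KO + GFP and WT + GFP changed without WT + GFP replicate 1 (0.42) and without KO + GFP replicate 2 (0.083). The fit with copies added was not repeated with a library left out. The counting did not use strand, and Gm26586, an antisense gene that overlaps Tpm4, had 3 to 14 reads per library.

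Vim (chromosome 2, 13573927 to 13582826, plus strand) encodes vimentin. Reads were 3572 and 3362 in the WT + GFP libraries, 1135 and 807 in those of KO + GFP, and 1181 and 1177 in those of KO + LEENE. WT + GFP was highest and KO + GFP lowest in CPM, with no overlap between groups, and after TMM scaling libraries of a group differed by at most 0.053 on the log2 scale. Vim fell by 1.44 ± 0.11 on the log2 scale in KO + GFP against WT + GFP (2.71-fold, adjusted P = 7.25e-38). It was 1.41-fold above KO + GFP in KO + LEENE (log2 fold change 0.49 ± 0.11, adjusted P = 1.14e-05). It stayed 1.92-fold lower in KO + LEENE than in WT + GFP (-0.94 ± 0.11, adjusted P = 7.74e-18), and all 3 calls held under every alternative run. Their sizes followed the scaling: with library size only the log2 fold changes were -1.92, 1.64 and -0.28.

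Several of these genes have processed copies in the genome, retrotransposed pseudogenes that resemble their mRNA and can take reads of the parent gene. A sequence search found 31 such copies, at an identity of at least 85%. There were none for Tmsb4x, Pfn1, Myh9 and Vim, 5 for Actb, 8 for Actg1, 5 for Tmsb10, 6 for Cfl1, 5 for Myl6 and 2 for Tpm4. The copies of Actb and Cfl1 held at most 3 reads in any library. Those of Tmsb10 held 89 and 79 reads in the WT + GFP libraries, 49 and 27 in those of KO + GFP, and 11 and 18 in those of KO + LEENE, fewer than the gene itself in every library. The copies of Actg1 held 3 and 3, 5 and 3, and 87 and 98 reads, so they were high in the same libraries as the gene.

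For Myl6 and Tpm4 the copies outweighed the gene in some groups. The 5 copies of Myl6 held 223 and 196 reads in the WT + GFP libraries, 978 and 579 in those of KO + GFP, and 18 and 11 in those of KO + LEENE. They took 85.4% and 89.5% of the reads of gene and copies together in WT + GFP, but 5.59% and 5.31% in KO + GFP. Gm10080, the copy with most reads in WT + GFP and KO + GFP, is 99.1% identical to the aligned Myl6 transcript. The 2 copies of Tpm4 held 130 and 147 reads in the WT + GFP libraries, 4 and 2 in those of KO + GFP, and 373 and 372 in those of KO + LEENE, and most of those in WT + GFP and KO + LEENE lay on Gm7809, with 98.2% identity. Whether these reads came from the copies or from the parent genes was not tested.

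When the reads of the copies were added to their gene, an alternative chosen after the data were seen, Myl6 rose 77.3-fold in KO + GFP against WT + GFP (log2 fold change 6.27 ± 0.13). Myl6 in KO + LEENE against WT + GFP changed from 1.22 to -1.36 ± 0.14 (adjusted P = 5.64e-21), a call in the opposite direction. Tpm4 in KO + GFP against WT + GFP changed from -0.048 to -3.69 ± 0.27, 12.9-fold lower (adjusted P = 3.31e-42). Tpm4 in KO + LEENE was again called higher than in both other groups. No other member's call changed.

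**Figure D4:**
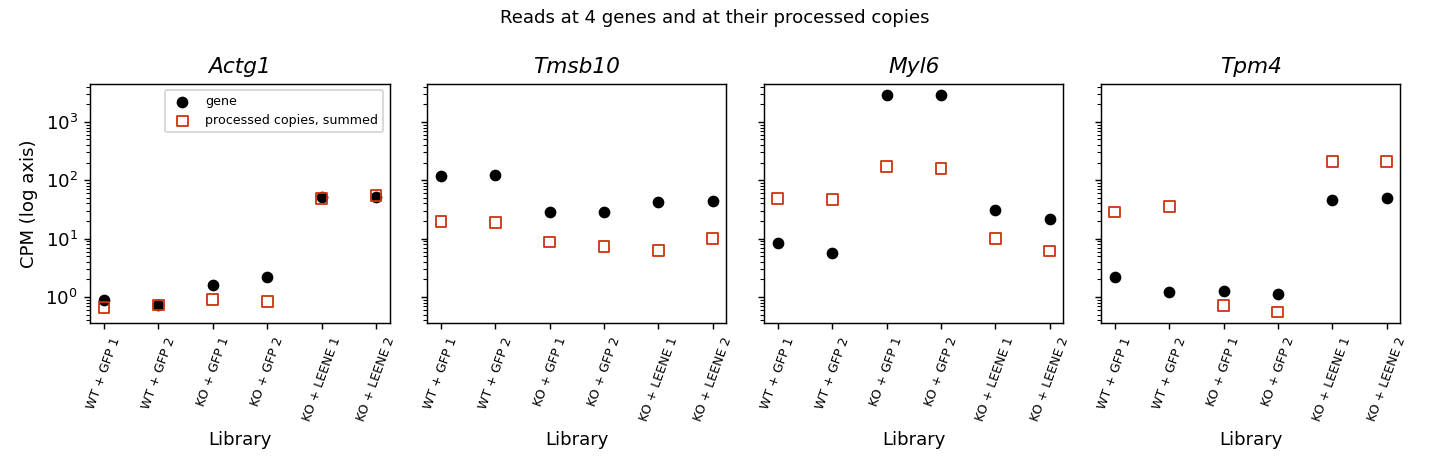
Level in CPM on a log axis of Actg1, Tmsb10, Myl6 and Tpm4 (black points) and the summed level of their processed copies (red open squares) in each library. The copies of Myl6 lie above the gene in WT + GFP and under it in KO + GFP, and the copies of Tpm4 lie above the gene in WT + GFP and KO + LEENE.

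The promoter windows of 4 genes are shown, chosen after their values and motifs were seen. Of the 9 genes with a window, which leave out Actb, Actg1 and Myl6 are those with a CArG box. Each is set beside a gene with the same highest group and no such box. Tpm4 was highest in KO + LEENE, as was Actg1, and Cfl1 in KO + GFP, as was Myl6. They are RefSeq sequences on GRCm38.p6, 5′ to 3′ on the strand of the gene, running from 250 bases before to 50 bases after a start that the RefSeq table lists for the gene. Such a start need not be the gene start in the count tables. It lay 47 bases downstream of it for Actg1, 313 downstream for Tpm4 and 30 upstream for Cfl1. Myl6 has 2 windows, with starts 11 bases upstream and 866 bases downstream, the latter inside the gene. Capitals mark the CArG box, the motif to which serum response factor (SRF), a regulator of many actin genes, is known to bind.
Actg1 (chr11:120348446-120348745, minus strand): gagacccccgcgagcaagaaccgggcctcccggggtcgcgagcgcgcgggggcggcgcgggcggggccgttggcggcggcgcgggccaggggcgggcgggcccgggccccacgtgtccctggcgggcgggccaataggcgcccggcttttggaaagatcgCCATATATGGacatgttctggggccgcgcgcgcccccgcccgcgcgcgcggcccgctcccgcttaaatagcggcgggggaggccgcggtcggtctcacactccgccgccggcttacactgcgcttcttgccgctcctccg
Tpm4 (chr8:72135038-72135337, plus strand): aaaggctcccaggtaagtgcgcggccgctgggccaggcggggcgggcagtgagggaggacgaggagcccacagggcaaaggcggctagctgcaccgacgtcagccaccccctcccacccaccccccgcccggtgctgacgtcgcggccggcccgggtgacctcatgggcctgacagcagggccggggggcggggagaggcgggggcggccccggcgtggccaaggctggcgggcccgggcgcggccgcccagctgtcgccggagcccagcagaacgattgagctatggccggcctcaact
Myl6, start near the gene start (chr10:128493837-128494136, minus strand): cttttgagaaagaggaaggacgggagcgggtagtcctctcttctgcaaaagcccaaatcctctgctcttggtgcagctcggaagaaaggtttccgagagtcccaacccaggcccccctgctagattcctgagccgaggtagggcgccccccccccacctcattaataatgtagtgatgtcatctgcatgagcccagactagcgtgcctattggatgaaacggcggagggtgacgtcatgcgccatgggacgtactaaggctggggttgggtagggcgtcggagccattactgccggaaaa
Myl6, start inside the gene (chr10:128492960-128493259, minus strand): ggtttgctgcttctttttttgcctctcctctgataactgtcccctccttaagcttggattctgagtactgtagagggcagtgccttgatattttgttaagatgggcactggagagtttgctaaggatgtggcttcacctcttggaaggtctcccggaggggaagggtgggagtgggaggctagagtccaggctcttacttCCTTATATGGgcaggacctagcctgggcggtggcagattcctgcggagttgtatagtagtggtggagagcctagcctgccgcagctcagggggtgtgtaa
Cfl1 (chr19:5490205-5490504, plus strand): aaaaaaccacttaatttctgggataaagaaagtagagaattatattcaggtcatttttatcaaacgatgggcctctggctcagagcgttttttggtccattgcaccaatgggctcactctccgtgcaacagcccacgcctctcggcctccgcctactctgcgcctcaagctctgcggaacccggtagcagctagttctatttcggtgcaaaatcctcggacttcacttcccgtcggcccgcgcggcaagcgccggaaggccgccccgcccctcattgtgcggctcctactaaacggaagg

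RefSeq windows were matched for 9 of the 10 genes, 12 windows in all, and both strands were searched. Actb had no window, so whether its promoter holds any of these motifs was not examined. A CArG box was found in 2 of these 9 genes, Actg1 and Myl6, and in 1.63% of all 32851 promoter windows. The Actg1 box, CCATATATGG, began at position -90 from its listed start. In Myl6 the box CCTTATATGG began at position -50 from the listed start inside the gene, and the window at the gene start held none. These genes were highest in different groups, Actg1 in KO + LEENE and Myl6 in KO + GFP. The GC-box letters GGGCGG were found in 8 of the 9 genes (35.7% of all windows), CCAAT in 5 (37.4%) and TATAAA in 2, Myh9 and Vim (13.6%). A gene counts here if any of its windows holds the motif, whereas the shares are per window, so the units differ. A match describes these letters and is not evidence of binding. Srf itself had 1 to 4 reads per library and was not tested.

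Levels of different genes are set side by side per kilobase of exon, on the TMM scale. A kit that reads 3′ ends makes such values approximate, since its reads need not grow with length, and the order by reads differed. In WT + GFP Tmsb4x was highest, at 295 TMM-scaled CPM per kilobase, ahead of Vim at 176, Pfn1 at 165 and Tmsb10 at 98.7. Actb followed at 46.9 and Cfl1 at 45.1, and their libraries overlapped. By reads Vim was ahead of Tmsb4x in that group. In KO + GFP Myl6 was at 6356 and Actb at 5734, with Pfn1 at 563, an order of Myl6 and Actb that rests on exon lengths of 665 and 2679 bases. By reads Actb was ahead, with 58995 and 38293 against 16524 and 10333. In KO + LEENE Tmsb4x led again at 352, with Pfn1 at 94.4 and Vim at 91.8, whose libraries overlapped. Myh9, Tpm4 and Actg1 were the lowest of the 10 in WT + GFP, at 1.96, 0.810 and 0.316.

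Measured over groups, WT + GFP was highest for 2 members, KO + GFP for 4 and KO + LEENE for 4. Over all genes tested the shares were 34.7%, 32.5% and 32.8%. For 5 of the 10 members a single group held at least 80% of the summed group means, compared with 45.1% of all genes tested. Among these were Actg1 and Tpm4, which passed the filter on low counts through KO + LEENE alone. The members therefore had no order of groups in common.

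By likeness of pattern, the genes nearest to Actb over the 6 libraries among the 895 genes compared were Adcy1, Ago3 and Hnrnpk, at root mean square log2 distances of 0.141, 0.189 and 0.217. Hnrnpk, for example, had 36 and 27 reads in the WT + GFP libraries, 4174 and 2597 in those of KO + GFP, and 27 and 25 in those of KO + LEENE. Nearest to Tmsb4x were Gm12155, Serpinb9f and Rai14, at 0.0366, 0.0379 and 0.0585. Nearest to Vim were Pgf, Srsf11 and Hsf2, at 0.140, 0.141 and 0.176.

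Other genes of the cytoskeleton were examined in 9 lists with 92 genes, of which 73 were tested. In KO + GFP against WT + GFP 36 rose and 17 fell (72.6% called), with a median log2 fold change of 0.60, beside 70.1% called and a median of -0.09 over all genes tested. In KO + LEENE against KO + GFP 25 rose and 33 fell (79.5%) by TMM, with a median of -0.64, but 34 rose and 23 fell with library size only. The values over all genes were 67.8% and -0.011. In KO + LEENE against WT + GFP 29 were higher and 26 lower (75.3%), with a median of -0.21, beside 70.7% and -0.11 over all genes.

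Among other proteins that bind actin subunits or sever filaments, 9 of 12 genes were tested. In KO + GFP against WT + GFP 4 rose and 1 fell, where 34.3% of all genes were called higher and 35.8% lower. From KO + GFP to KO + LEENE 4 rose and 3 fell, where the shares were 32.8% and 35.0%. Wdr1, a cofactor of cofilin, had 15 and 17 reads in the WT + GFP libraries, 1251 and 902 in those of KO + GFP, and 12 and 6 in those of KO + LEENE. Its high group was that of Cfl1. Dstn, the cofilin relative destrin, had 57 and 36, 66 and 49, and 405 and 372 reads. It was highest where Cfl1 was lowest, 7.83-fold above KO + GFP in KO + LEENE (adjusted P = 2.79e-87).

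The Arp2/3 complex starts filament branches, and 8 of its 9 genes were tested. In KO + LEENE against WT + GFP 6 were lower and 1 higher, where 36.9% of all genes were called lower and 33.9% higher. In KO + GFP against WT + GFP 4 fell and 1 rose, beside 35.8% and 34.3% of all genes. In KO + LEENE against KO + GFP 2 rose and 2 fell by TMM, and 4 rose and 1 fell with library size only. The subunit gene Arpc5l had 2408 and 2202 reads in the WT + GFP libraries, 6 and 5 in those of KO + GFP, and 26 and 23 in those of KO + LEENE. Arpc2 had 595 and 576, 7 and 0, and 6 and 5 reads. Arpc1b was instead highest in KO + LEENE, with 102 and 98, 95 and 49, and 296 and 278 reads. In KO + LEENE against KO + GFP Arpc1b rose 4.64-fold (adjusted P = 4.80e-50), and Arpc5l rose there too, 5.09-fold (adjusted P = 3.64e-08), while Arpc2 was not called. Subunits of 1 complex therefore differed in their highest group.

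Of 11 tested genes for capping and nucleation, 6 rose and 4 fell in KO + GFP against WT + GFP, and 1 rose and 7 fell in KO + LEENE against KO + GFP (3 and 4 with library size only). All genes gave 34.3% higher and 35.8% lower in the former comparison, and 32.8% and 35.0% in the latter. Wasl, which encodes the Arp2/3 activator N-WASP, had 1902 and 1861 reads in WT + GFP and 2 to 6 in each other library. Cyfip1, of the WAVE regulatory complex, had 1903 and 1753 in WT + GFP and 0 to 7 elsewhere. Wasf2, which encodes WAVE2 of the same complex, varied far less, with 2083 and 1796, 1342 and 883, and 679 and 707 reads.

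Of 11 tested genes for non-muscle myosin and its regulators, 5 rose and 1 fell in KO + GFP against WT + GFP (5 and 3 with library size only), and 5 rose and 5 fell in KO + LEENE against KO + GFP (6 and 3 with library size only). Over all genes 34.3% rose and 35.8% fell in the former, and 32.8% and 35.0% in the latter. Ppp1r12a, the targeting subunit of myosin phosphatase, had 10 and 12 reads in the WT + GFP libraries, 388 and 250 in those of KO + GFP, and 9 and 3 in those of KO + LEENE. Its catalytic partner Ppp1cb had 102 and 91, 295 and 205, and 21 and 19 reads. Both were highest in the group where Myl6 was highest. Cald1, which encodes caldesmon, a filament-binding protein, fell 1.99-fold from WT + GFP to KO + GFP (adjusted P = 1.50e-19).

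Of 13 tested tropomyosins and crosslinkers, 9 rose and 2 fell in KO + GFP against WT + GFP, and 5 rose and 7 fell in KO + LEENE against KO + GFP (7 and 6 with library size only). The background was 34.3% higher and 35.8% lower in the former, and 32.8% and 35.0% in the latter. Tpm1 had 3122 and 2866 reads in the WT + GFP libraries, 23431 and 15031 in those of KO + GFP, and 1685 and 1687 in those of KO + LEENE. It rose 8.40-fold in KO + GFP (adjusted P = 1.10e-142) and fell 9.74-fold from there to KO + LEENE (adjusted P = 3.09e-156), an order unlike that of its relative Tpm4. Actn4, the crosslinker α-actinin 4, had 33 and 24, 303 and 223, and 921 and 901 reads, and was highest in KO + LEENE as were Actg1 and Tpm4. Fscn1, the bundling protein fascin, had 2 and 0, 892 and 533, and 6 and 1 reads.

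Of 10 tested genes that link actin to the membrane and to adhesions, 5 rose and 3 fell in KO + GFP against WT + GFP, 5 rose and 4 fell in KO + LEENE against KO + GFP (6 and 3 with library size only), and 6 were higher and 1 lower in KO + LEENE against WT + GFP. The shares of all genes called higher and lower were 34.3% and 35.8%, 32.8% and 35.0%, and 33.9% and 36.9% in these comparisons. Itgb1, the integrin β1 chain, was 3.81-fold higher in KO + LEENE than in WT + GFP (adjusted P = 2.29e-80). Msn, which encodes moesin, had 20 and 9 reads in the WT + GFP libraries, 1410 and 861 in those of KO + GFP, and 1 and 8 in those of KO + LEENE. Parva, the adhesion protein α-parvin, had 2825 and 2676 reads in WT + GFP and 1 to 4 in each other library. Mrtfb, an SRF coactivator that senses free actin, was the 1 tested gene of 3 in its list and had 561 and 541 reads in the WT + GFP libraries, 6 and 5 in those of KO + GFP, and 0 and 7 in those of KO + LEENE.

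Of the other intermediate filament genes, 4 of 9 were tested, of which 3 rose and 1 fell in KO + GFP against WT + GFP, where 34.3% and 35.8% of all genes did. Lmna, which encodes lamins A and C, rose 7.71-fold from WT + GFP to KO + GFP (adjusted P = 1.07e-155), where Vim fell. Plec, the linker protein plectin, rose 2.53-fold there (adjusted P = 3.85e-11). Of 6 tested tubulins, the subunits of microtubules, 3 rose in that comparison and the other 3 were not called, and 2 rose and 3 fell in KO + LEENE against KO + GFP (2 and 2 with library size only), where 32.8% and 35.0% of all genes did.

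**Figure D5:**
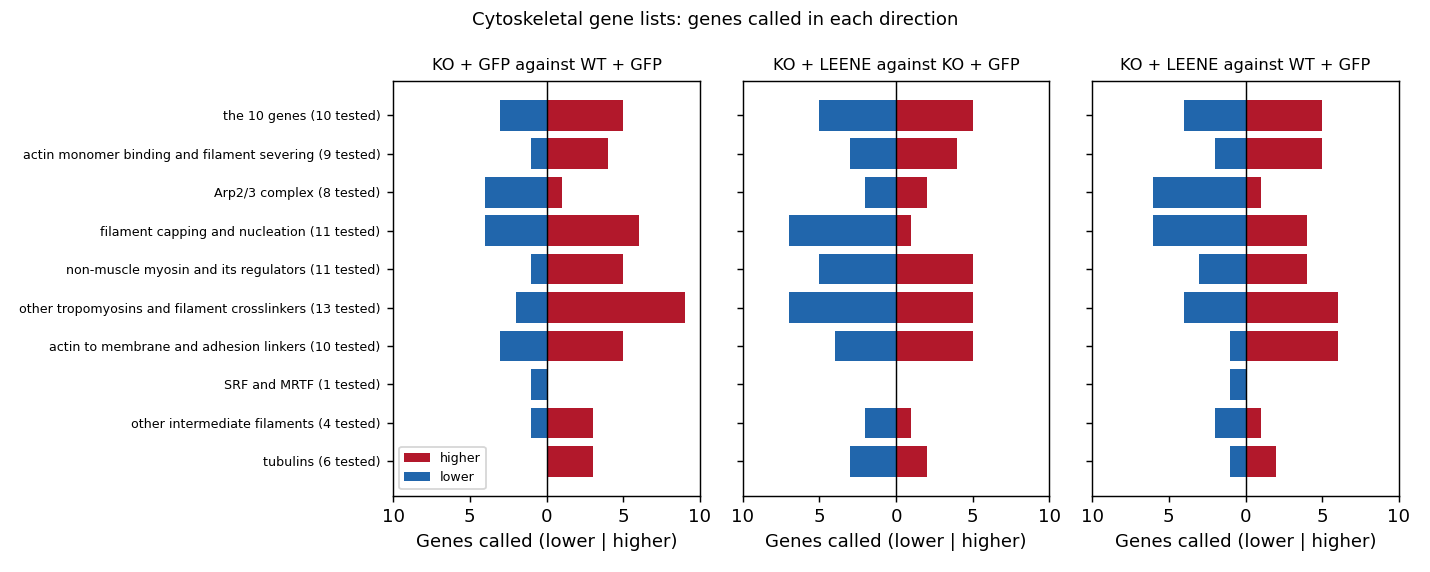
Number of genes called higher (red, right) and lower (blue, left) in each cytoskeletal list, with the number tested beside its name, in the 3 comparisons by TMM scaling. Crosslinkers lie mostly to the right in KO + GFP against WT + GFP, with 9 higher and 2 lower, and Arp2/3 genes mostly to the left in KO + LEENE against WT + GFP, with 1 higher and 6 lower.

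The 10 genes are used by nearly every cell type, and in bulk samples fewer cells of a type and less RNA per cell cannot be told apart. Markers of other cell types moved with the groups. The summed level of 8 fibroblast markers was 62.0 and 69.1 CPM in the WT + GFP libraries, 15943 and 15850 in those of KO + GFP, and 81.9 and 82.6 in those of KO + LEENE. Lum and S100a4 were at 0 in KO + GFP. Lum is a defining fibroblast gene, and S100a4 is the fibroblast marker that the study's methods name for its single-cell data. The fibroblast gene Dcn had 53 and 62 reads, 63633 and 40842, and 42 and 45. The 10 macrophage markers summed to 23.4 and 33.2, 579 and 547, and 8.47 and 8.93 CPM, with Adgre1 at 1 and 2, 1823 and 1060, and 3 and 1 reads and with Itgam at 0 in KO + GFP. The KO + GFP sum came mostly from Adgre1 and from Lyz2, with 853 and 550 reads there. Only 4 of the 10 held more than 6 reads over its libraries. Of 5 tested, 4 were higher and 1 lower in KO + GFP against WT + GFP, where 34.3% and 35.8% of all genes were. The sums of these lists, though not each marker, were thus highest in the group where Actb, Myl6, Pfn1 and Cfl1 were highest. Their part in those results was not tested.

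Markers of ECs were present in every group, and 8 of 10 held more than 6 reads over the libraries of each group. They summed to 325 and 303 CPM in the WT + GFP libraries, 2409 and 2599 in those of KO + GFP, and 283 and 309 in those of KO + LEENE. Cdh5, which encodes CD144 itself, had 332 and 283, 322 and 196, and 5 and 18 reads. By edgeR's quasi-likelihood test Cdh5 was 19.2-fold lower in KO + LEENE than in KO + GFP (adjusted P = 1.69e-75). It was 17.3-fold lower there than in WT + GFP (adjusted P = 1.21e-71). Pecam1 had 211 and 175, 140 and 89, and 95 and 110 reads. The KO + GFP sum came mostly from Emcn, with 12245 and 8648 reads there and 7 to 14 in each other library. The 6 mural cell markers were highest in KO + LEENE, with 3.75 and 4.12, 4.82 and 3.59, and 37.3 and 49.1 CPM, the group where Actg1, Tpm4 and Myh9 were highest. The KO + LEENE sum came mostly from Rgs5, with 51 and 69 reads there, and 2 of the 6 markers held more than 6 reads over its libraries. The 10 skeletal muscle fiber markers summed to 6.84 and 4.12, 32.3 and 33.4, and 3.95 and 5.58 CPM. The KO + GFP sum came mostly from Myh4, with 102 and 65 reads, and Pvalb, with 74 and 52, while 6 of the 10 markers (Ckm, Myh2, Tnnt3, Tnnc2, Tnni2 and Mylpf) were at 0 there. The 6 white blood cell markers summed to 42.3 and 43.9, 4.46 and 6.62, and 2.82 and 3.91 CPM, highest in WT + GFP as were Vim and Tmsb10. The WT + GFP sum came mostly from Ptprc, with 176 and 172 reads there. The part of these markers in the results was not tested.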

How the data were processed

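RNA-seq was performed by the authors on CD144-enriched cells with a 3′ gene expression kit, without its droplet step. The deposited values are raw read counts per gene: per the file headers, the authors counted uniquely aligned reads over exons with featureCounts 2.0.0, without strand, on Ensembl release 84 of GRCm38. No collapsing of molecular identifiers is named, so intervals and floors cover counting error only. The processing notes name STAR 2.5.4b and mm10, while the study's methods name mm9, TPM and DESeq2. Exon lengths are the deposited gene lengths. Total counts were 1770992 to 5602603 per library, and 3 reads corresponded to 0.535 to 1.69 CPM.

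Groups and replicate numbers came from the sample titles. Gene names were taken from GENCODE M39 by Ensembl identifier (43465 of 47729 genes). All 6 libraries entered a fit with a mean per group and no covariate (edgeR 4.0.16 quasi-likelihood test, R 4.3.3, TMM, filterByExpr at its defaults, a count of 10 and a total of 15). P values were adjusted by Benjamini-Hochberg over 8903 genes. The SE is the log2 fold change divided by the square root of F, an approximation. DESeq2 1.42.0 was the alternative tool, beside other size factors, filters, prior counts, the replicate number as a block, only the 4 samples compared, no mitochondrial genes, and leaving out each library. The fitting code was tested on simulated counts. Processed copies were found with BLASTN 2.17.0 (identity at least 85%, at least 80% of the copy and 100 bases aligned).

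The 10 genes and all lists were chosen with earlier results of these data known. A further cytoskeletal list is not reported here. Besides these 10, in each list the 2 genes of highest mean CPM and, per comparison, the called gene of largest fold with a mean of at least 20 CPM could be named, with Cdh5, Pecam1 and Adgre1. For pattern likeness, the 3 nearest genes of at least 100 CPM were named for Actb, Tmsb4x and Vim.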

Additional observations from a re-analysis of the deposited data

How the results depend on the processing

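Members' fold changes kept their direction and their side of the threshold in 277 of 289 values under the alternatives other than leaving out a library, and in 166 of 180 when a library was left out. These fits keep the spread pooled over the remaining libraries, so a lone library is assumed to vary like the other groups. Requiring at least 10 reads in every library left 3 members called higher in each comparison (Actg1, Cfl1 and Tpm4 are removed by construction) and 1536, 1505 and 1552 genes called over all genes, in the order KO + GFP against WT + GFP, KO + LEENE against KO + GFP, and KO + LEENE against WT + GFP. DESeq2 called 5506, 5369 and 5519 genes. Leaving out 1 library gave 5721 to 6782, 5504 to 6126 and 5806 to 6641 genes called. Members called higher ranged from 4 to 5 in each comparison, and members called lower from 2 to 3, 5 to 5 and 4 to 4. The members' share of reads ranged from 0.187% to 0.192% in WT + GFP, 1.511% to 1.514% in KO + GFP and 0.2171% to 0.2178% in KO + LEENE. Out of reads of genes not encoded in mitochondria it was 0.382%, 2.30% and 0.328%. The ratio of Actb to Actg1 ranged from 134 to 168, 4787 to 6555 and 3.31 to 3.63, and that of Tmsb4x to Tmsb10 from 3.18 to 3.25, 9.41 to 10.1 and 16.7 to 17.3. With reads of processed copies added, an alternative chosen after seeing the data, the mean ratios were 80.4, 3848 and 1.73 for Actb to Actg1, and 2.77, 7.59 and 14.3 for Tmsb4x to Tmsb10.

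Signs turned for Tmsb4x in KO + GFP against WT + GFP (-0.47 with library size only, -0.073 with no filter beyond 1 read, -0.018 with 10 reads in every library, -0.0077 with only the 4 samples compared, -0.075 without WT + GFP replicate 1, -0.069 without KO + GFP replicate 1, up to 0.115 without KO + GFP replicate 2) and for Tpm4 there (0.42 without WT + GFP replicate 1 and 0.083 without KO + GFP replicate 2; leaving out 1 library gave -0.41 to 0.42, library size only -0.53 and processed copies added -3.69). They also turned for Tmsb10 in KO + LEENE against KO + GFP (0.59 with library size only), and in KO + LEENE against WT + GFP for Actb (0.58 with library size only, 0.044 without KO + LEENE replicate 1; leaving out 1 library gave -0.14 to 0.044 and only the 4 samples compared -0.16) and Myl6 (-1.36 with processed copies added, an alternative chosen after seeing the data). The cause was not tested. Same-numbered libraries did not deviate together (correlations 0.0306, 0.0139 and 0.0193), so the number alone does not pair them. A fit with the replicate block called 6074, 5843 and 6149 genes over all, and changed no member's call. Depth limits Actg1, Tpm4 and Cfl1, which had 3 to 10 reads per library in at least 1 group.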

Other observations

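The muscle actins, which mark smooth, cardiac and skeletal muscle, are relatives of Actb and Actg1 and had few reads in WT + GFP and KO + GFP, but more in KO + LEENE, mostly from Acta1. Acta1, the skeletal muscle actin, had 2 and 1 reads in the WT + GFP libraries, 7 and 2 in those of KO + GFP, and 53 and 43 in those of KO + LEENE. It was 12.1-fold above KO + GFP in KO + LEENE by edgeR's quasi-likelihood test (adjusted P = 1.02e-17). The summed skeletal muscle fiber markers were instead highest in KO + GFP, mostly from Myh4 and Pvalb, with 6 of the 10 at 0 there. Acta2, the smooth muscle actin, had 6 and 2, 0 and 0, and 3 and 2 reads and was not tested. Summed, the 4 muscle actins reached 1.98 and 1.45 CPM in the WT + GFP libraries, 1.78 and 0.552 in those of KO + GFP, and 31.6 and 25.1 in those of KO + LEENE. Among tubulins, Tuba1a had 7 and 11, 11 and 15, and 100 and 117 reads, and Tubb6 had 7 and 8, 80 and 55, and 0 and 0 reads, so these tubulins peaked in different groups.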
